A study of Mus musculus with 12 samples.

Results

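The interleukin 1 (IL-1) family genes described here were the ligands Il1a, Il1b, Il18 and Il33, the inhibitors Il1rn and Il18bp, and the receptors Il1r1, Il1r2 and Il1rap. They were taken by symbol as 9 of the 43280 gene rows of the deposited expression table, and all 9 were found. The cells were bone marrow-derived macrophages (BMDM) of C57BL6 background, either wild type (wt) or Treml4-/-, grown with 20 ng/ml M-CSF. M0 cells were labelled unstimulated and received the PBS vehicle by the treatment protocol, whereas M1-8 h and M1-12 h cells received 100 ng/ml LPS, a bacterial cell wall component that activates Toll-like receptor 4, for 8 or 12 h. Each of the 6 conditions had 2 biological replicates, giving 12 libraries, and neither the age of the mice nor whether replicates came from separate animals was stated in the labels, so p-values measure the spread between these cultures. Levels are given as CPM, that is read counts scaled to library size, differences as log2 fold change on the log2(CPM + 1) scale, which understates the change of genes with low levels, and a gene was called where the adjusted p was under 0.05 and the change was 1.4-fold or more.

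IL-1α and IL-1β signal through a receptor made of IL1R1 and the accessory chain IL1RAP, which recruits MYD88 and leads to NF-kB activation. The pathway is held back at several points, by the receptor antagonist encoded by Il1rn, by the decoy receptor encoded by Il1r2 and, for IL-18, by the soluble binding protein encoded by Il18bp. Macrophages are a main source of IL-1β, whose precursor is made after Toll-like receptor signals and is then cut by caspase-1, so that RNA levels do not report how much active cytokine is released.

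Between 48008751 and 58500792 reads were counted per library, and a floor of 3 reads corresponded to 0.0513 to 0.0625 CPM. Treml4 had 198 to 663 reads in the wt libraries and 0 reads in all 6 Treml4-/- libraries, as the labels state. The 8 macrophage markers summed to between 9996.1 and 27906.5 CPM in every library. The 7 lymphoid markers summed to at most 0.885 CPM, the 6 mast cell and basophil markers to at most 0.838 CPM, and the 6 fibroblast markers to at most 5.34 CPM. The 9 neutrophil markers summed to 48.2 to 134 CPM in wt M0, 119 to 158 CPM in Treml4-/- M0 and 48.9 to 108 CPM after LPS, while the neutrophil surface gene Ly6g had at most 7 reads in a library. The 6 dendritic cell markers summed to at most 1.18 CPM at M0 and, mostly from Ccr7 and Xcr1, to 13.8 to 27.3 CPM after LPS. In these bulk cultures, fewer cells expressing a gene and less RNA per cell cannot be told apart.

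In the GENCODE M21 annotation of mouse GRCm38, Il1a (chr2:129299610-129309972) and Il1b (chr2:129364570-129371139) are neighbours on the minus strand. Il1rn (chr2:24336853-24351494, plus strand) lies elsewhere on that chromosome, at one end of a row of IL-1 family genes that begins with Il1f8 at position 24153161. Il1r2 (chr1:40074079-40125231) and Il1r1 (chr1:40225080-40317257) are adjacent on the plus strand and are followed by the related receptor genes Il1rl2, Il1rl1, Il18r1 and Il18rap. Il18 (chr9:50554827-50581840), Il18bp (chr7:102014885-102018690), Il33 (chr19:29925114-29960718) and Il1rap (chr16:26581704-26730117) lie alone. The exons of Il1a, Il1b, Il1rap and Il18bp overlap exons of a gene on the other strand. Whether strand was used in counting was not given in the sources used here, so reads of such pairs might not be separated. The partners of Il1a, Il1b and Il1rap had at most 16, 9 and 1 reads in a library, whereas Numa1, the partner of Il18bp, had 3676 to 21477 reads.

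The promoters of the 3 genes with the largest responses to LPS are shown because members of this group differed in size and timing of response. RefSeq promoter windows on GRCm38.p6 were matched to all 9 genes, and the 250 bases before the start are printed 5′ to 3′ on the strand of the gene. Capitals mark matches to the C/EBP (TTNNGNAA) and AP-1 (TGANTCA) motifs, searched on both strands as was the NF-kB consensus, and to the TATA box (TATAAA), searched on the sense strand. Il1rn is shown for 2 of its starts, an upstream and a downstream one.
Il1a, chr2:129309973-129310222, minus strand: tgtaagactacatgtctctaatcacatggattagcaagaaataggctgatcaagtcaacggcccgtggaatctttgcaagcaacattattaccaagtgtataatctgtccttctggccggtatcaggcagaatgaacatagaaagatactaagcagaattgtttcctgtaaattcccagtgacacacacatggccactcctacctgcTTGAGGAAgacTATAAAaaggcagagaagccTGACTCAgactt
Il1b, chr2:129371140-129371389, minus strand: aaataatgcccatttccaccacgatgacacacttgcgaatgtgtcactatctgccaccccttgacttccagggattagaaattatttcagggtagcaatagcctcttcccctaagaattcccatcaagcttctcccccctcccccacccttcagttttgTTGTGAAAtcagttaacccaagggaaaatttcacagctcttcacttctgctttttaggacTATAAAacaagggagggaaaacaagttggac
Il1rn upstream start, chr2:24336610-24336859, plus strand: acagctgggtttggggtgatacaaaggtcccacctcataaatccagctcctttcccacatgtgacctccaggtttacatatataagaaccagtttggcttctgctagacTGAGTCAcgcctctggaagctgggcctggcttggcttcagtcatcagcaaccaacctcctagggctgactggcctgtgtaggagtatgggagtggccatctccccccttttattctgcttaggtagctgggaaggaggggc
Il1rn downstream start, chr2:24345041-24345290, plus strand: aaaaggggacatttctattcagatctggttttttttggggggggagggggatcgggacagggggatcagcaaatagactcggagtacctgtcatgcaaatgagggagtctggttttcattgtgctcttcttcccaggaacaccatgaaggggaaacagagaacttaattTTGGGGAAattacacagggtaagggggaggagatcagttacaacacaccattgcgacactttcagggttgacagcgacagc

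The TATA box began 32 bases before the start in Il1a and 31 bases before it in Il1b, and was absent from both Il1rn windows. A C/EBP match lay at -43 to -36 in Il1a, at -91 to -84 in Il1b and at -81 to -74 before the downstream Il1rn start, and 2 more C/EBP matches that overlap each other lay at 16 and 17 bases after that start. An AP-1 match lay at -12 to -6 in Il1a and at -141 to -135 before the upstream Il1rn start. The NF-kB consensus was not matched in these windows. Among all 32851 promoter windows of 300 bases, 8.46% held the NF-kB consensus, 40.7% the C/EBP letters, 7.81% the AP-1 letters and 8.32% the TATA box. These matches describe letters in a window and say nothing of binding.

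At M0, per kb of exon, the group was led by the inhibitor Il1rn and by Il18, and Il1a and Il1b were low. The place of Il18 rests on dividing by exon length. Without that step, mean CPM was 33.4 for Il1rn, 5.29 for Il1rap, 5.09 for Il18bp and 4.54 for Il18. Compared per length, in CPM per kb of exon, Il1rn was at 6.04 ± 0.939 (SD, n = 4), Il18 at 4.41 ± 0.944, Il18bp at 1.68 ± 0.185, Il1rap at 0.465 ± 0.0802 and Il1b at 0.283 ± 0.143. The ranges of Il1rn and Il18 overlapped, as did those of Il1rap and Il1b, so the order within those pairs was not resolved. Il1a, Il1r1 and Il1r2 were at no more than 0.107 CPM per kb, with 4 to 11, 15 to 18 and 1 to 3 reads in a library. Il33, an alarmin of the nucleus of barrier and stromal cells, had 0 reads in all 4 M0 libraries.

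LPS raised the level of every one of the 9 genes at 8 h and of 8 of them at 12 h by the call above (limma, Benjamini-Hochberg). In the same comparisons 76.9% of the 12086 genes tested were called at 8 h, 17.1% as higher, and 76.5% were called at 12 h, 16.3% as higher. Il1a, Il1b, Il33, Il1r1 and Il1r2 were under 1 CPM in all M0 libraries and passed the filter on low values only through their LPS libraries, so their calls add nothing to that count. The median log2 fold change of all genes tested was -0.724 at 8 h and -0.756 at 12 h with scaling to library size, against -0.037 and -0.0359 with median of ratios scaling, under which 3753 genes were called higher and 3778 lower at 8 h instead of 2070 and 7225, and 3940 higher and 3927 lower at 12 h instead of 1965 and 7284. The members' changes are to be read relative to these medians.

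**Figure D1:**
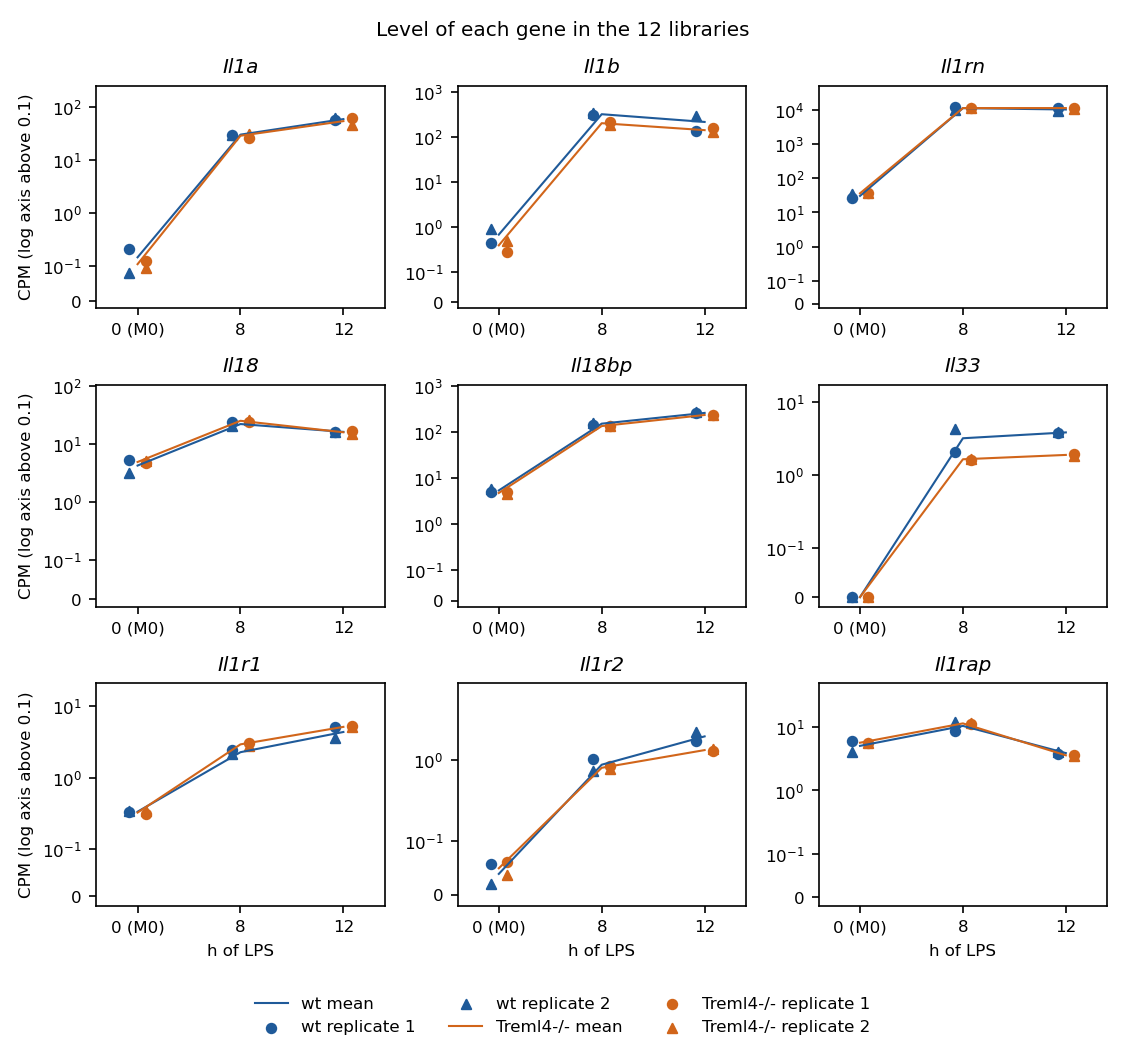
CPM of each of the 9 genes (log axis above 0.1, linear below) against h of LPS, with 1 point per library, circles for replicate 1 and triangles for replicate 2, wt in blue and Treml4-/- in orange, and lines through the means of 2 replicates. Il1b, Il1rn and Il1a rose from M0 by 235 times or more at 8 h, Il33 was at 0 in all M0 libraries, and Il1rap stood at 3.52 to 4.01 CPM at 12 h.

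The pro-inflammatory ligands Il1a and Il1b rose from under 1 CPM at M0. Both passed the filter only through their LPS libraries, so their calls against M0 add nothing to the values. Il1a was at 0.212 and 0.0787 CPM in the wt M0 libraries and at 0.122 and 0.0935 CPM in the Treml4-/- ones. At 8 h it reached 30.7 and 30.4 CPM in wt and 26.5 and 31.7 CPM in Treml4-/-, and at 12 h 56.6 and 63.6 CPM in wt and 62.8 and 47.2 CPM in Treml4-/-. The 3 time points did not overlap for Il1a, and its mean CPM was 235 times the M0 mean at 8 h and 454 times at 12 h. Its log2 fold change was 4.77 at 8 h (SE 0.104, limma adjusted p = 4.23e-12) and 5.69 at 12 h (SE 0.104, limma adjusted p = 1.28e-12).

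Il1b, the most abundant of the 4 ligands described here after LPS, had 0.444 and 0.924 CPM in wt M0 and 0.285 and 0.505 CPM in Treml4-/- M0. It reached 306 and 345 CPM in wt and 224 and 187 CPM in Treml4-/- at 8 h. At 12 h it was at 141 and 297 CPM in wt and at 160 and 128 CPM in Treml4-/-. All LPS libraries lay above all M0 libraries, and the 8 h and 12 h values overlapped because wt replicate 2 stayed high at 12 h. Mean CPM was 492 times that at M0 at 8 h and 336 times at 12 h, with log2 fold changes of 7.41 (SE 0.198, limma adjusted p = 2.03e-11) and 6.82 (SE 0.198, limma adjusted p = 4.14e-11).

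Il1rn, the antagonist that occupies IL1R1 without signalling, was by far the most abundant of the 9 genes after LPS. It had 25.7 and 35.4 CPM in wt M0 and 36.3 and 36.4 CPM in Treml4-/- M0. At 8 h it had 12591.5 and 10061.6 CPM in wt and 11259.6 and 11496.7 CPM in Treml4-/-, and at 12 h 11613.3 and 9057.3 CPM in wt and 11794.3 and 10970.6 CPM in Treml4-/-. These levels made Il1rn 0.906 to 1.26% of all reads in the LPS libraries, where it ranked 3 to 8 among all genes by reads, and 93.2 to 96.6% of the reads of the 9 genes together. The mean CPM rose 339 times at 8 h and 325 times at 12 h, and the log2 fold changes of 8.37 (SE 0.113, limma adjusted p = 1.15e-13) and 8.31 (SE 0.113, limma adjusted p = 1.31e-13) were the largest of the 9 genes on the log2(CPM + 1) scale, whereas as a ratio of mean CPM Il1b rose more at 8 h and Il1a and Il1b rose more at 12 h.

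The IL-18 pair moved unequally. Il18, a ligand whose precursor is present in resting macrophages, was at 5.32 and 3.13 CPM in wt M0 and 4.75 and 4.98 CPM in Treml4-/- M0, rose to 23.2 and 20.4 CPM in wt and 23.8 and 25.8 CPM in Treml4-/- at 8 h, and was at 16 and 16 CPM in wt and 16.8 and 14.7 CPM in Treml4-/- at 12 h. Il18bp was at 4.94 and 5.88 CPM in wt M0 and 4.97 and 4.56 CPM in Treml4-/- M0, and rose to 147 and 160 CPM in wt and 134 and 138 CPM in Treml4-/- at 8 h. At 12 h Il18bp stood at 256 and 270 CPM in wt and at 233 and 241 CPM in Treml4-/-. Neither gene overlapped between time points. Il18 was 5.13 times its M0 mean at 8 h (log2 fold change 2.15, SE 0.122, limma adjusted p = 9.52e-09) and 3.49 times at 12 h, whereas Il18bp was 28.4 times its M0 mean at 8 h (log2 fold change 4.58, SE 0.0661, limma adjusted p = 1.85e-13) and 49.2 times at 12 h. Numa1, which shares exon sequence with Il18bp on the other strand, cannot be separated from it if counting ignored strand.

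Il33 was detected only after LPS, at low levels. It had 2.08 and 4.27 CPM in wt and 1.62 and 1.66 CPM in Treml4-/- at 8 h, and 3.72 and 3.91 CPM in wt and 1.92 and 1.84 CPM in Treml4-/- at 12 h, from 91 to 230 reads in a library. Against a floor of 3 reads per M0 library, Il33 was at least 41.2-fold higher at 8 h and at least 48.6-fold higher at 12 h.

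Among the receptors, Il1r1 and Il1r2 were higher at both times, and the accessory chain Il1rap was called higher at 8 h. Il1r1 and Il1r2 passed the filter only through their LPS libraries, so their calls against M0 add nothing to the values. The signalling receptor Il1r1 was at 0.306 to 0.337 CPM in the M0 libraries, at 2.42 and 2.12 CPM in wt and 3.09 and 2.76 CPM in Treml4-/- at 8 h, and at 5.08 and 3.65 CPM in wt and 5.25 and 5.05 CPM in Treml4-/- at 12 h. Its mean CPM was 7.97 times the M0 mean at 8 h and 14.6 times at 12 h, with log2 fold changes of 1.43 (SE 0.0936, limma adjusted p = 3.26e-08) and 2.11 (SE 0.0936, limma adjusted p = 1.14e-09). The decoy receptor Il1r2 had 9 reads over the 4 M0 libraries, 181 over those at 8 h and 342 over those at 12 h, which after adjustment for library size gave a ratio of 19.1 (95% exact counting interval 9.82 to 42.4) and of 37.5 (19.5 to 82.7), where the intervals cover counting error only. In CPM, Il1r2 reached 1.03 and 0.724 in wt and 0.838 and 0.768 in Treml4-/- at 8 h, and 1.71 and 2.22 in wt and 1.29 and 1.37 in Treml4-/- at 12 h, so that no library at 12 h overlapped with 8 h.

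Il1rap, which pairs with IL1R1 and with the IL-33 and IL-36 receptors, was at 6.02 and 3.95 CPM in wt M0 and 5.56 and 5.61 CPM in Treml4-/- M0. It rose to 8.66 and 11.8 CPM in wt and 11 and 11.4 CPM in Treml4-/- at 8 h (log2 fold change 0.904, SE 0.122, limma adjusted p = 2.19e-05), and was at 3.68 and 4.01 CPM in wt and 3.58 and 3.52 CPM in Treml4-/- at 12 h. At 12 h its log2 fold change from M0 was -0.408 (limma adjusted p = 0.00779), under the fold minimum, and the direction depended on scaling, being 0.279 with median of ratios, 0.283 with TMM and 0.57 with quantile normalization, the last past both thresholds. It was called as lower with a pseudocount of 0.1 (-0.488), with the deposited log2 CPM (-0.498), with voom (-0.499) and without wt M0 replicate 2, the lowest M0 library (-0.534).

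**Figure D2:**
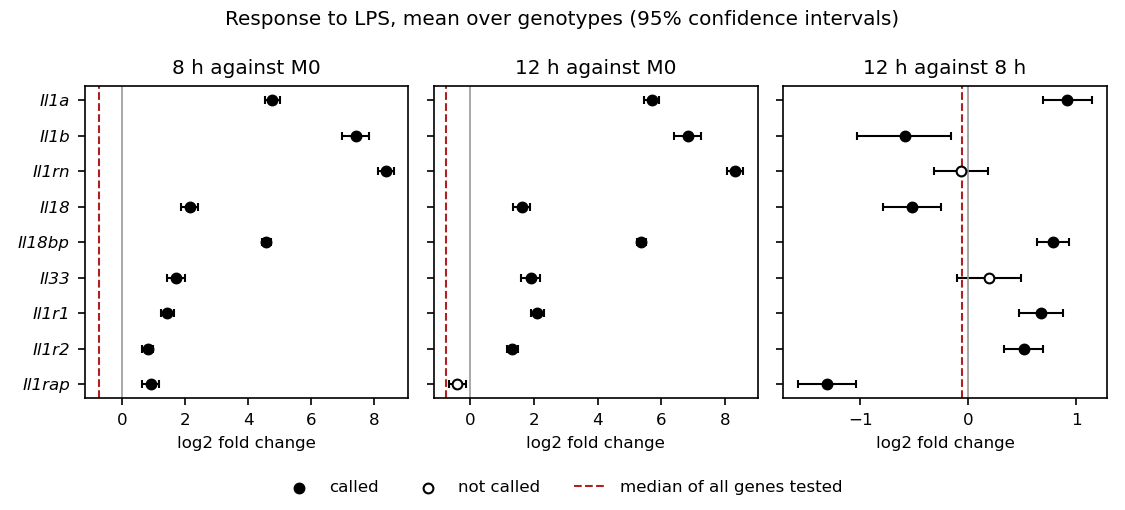
Log2 fold change on the log2(CPM + 1) scale for each gene, as a mean over both genotypes, for 8 h against M0, 12 h against M0 and 12 h against 8 h, with limma's 95% confidence intervals, filled points for called genes and a dashed line at the median of all genes tested. The changes from M0 run from 0.815 (Il1r2) to 8.37 (Il1rn) at 8 h, and between 8 and 12 h the points fall on both sides of 0. The order depends on the scale. As ratios of mean CPM at 8 h, Il1r2 rose 19.1 times against 2.03 for Il1rap, and Il1b 492 times against 339 for Il1rn.

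From 8 to 12 h the group split. Il1a, Il18bp, Il1r1 and Il1r2 rose further, Il1b, Il18 and Il1rap fell, and Il1rn and Il33 were not called, while 32.1% of all genes tested were called, 13.5% as higher and 18.7% as lower. Il1rap fell by 1.31 on the log2 scale (SE 0.122, limma adjusted p = 4.75e-06) and Il1a rose by 0.92 (SE 0.104, limma adjusted p = 2.12e-05), in libraries that did not overlap. Il18bp rose by 0.786 (limma adjusted p = 2.23e-06) and Il1r1 by 0.676 (limma adjusted p = 9.31e-05). The calls of these 4 genes stood when any 1 library was left out.

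The other calls were closer to the thresholds. Il1r2 rose by 0.515 (limma adjusted p = 0.000254), and the difference fell under the fold minimum without wt M1-8 h replicate 2 (0.456) or without wt M1-12 h replicate 2 (0.452). Il18 fell by 0.524 (limma adjusted p = 0.0032) in libraries that did not overlap, and its difference fell under the fold minimum without wt M1-8 h replicate 1 (-0.481) or Treml4-/- M1-12 h replicate 2 (-0.479). Il1b fell by 0.59 (95% confidence interval -1.03 to -0.155, limma adjusted p = 0.0233), and this call was lost without wt M1-8 h replicate 2 (-0.547), wt M1-12 h replicate 1 (-0.322), Treml4-/- M1-8 h replicate 1 (-0.527) or Treml4-/- M1-12 h replicate 2 (-0.51). The differences of Il1rn (-0.0673, 95% confidence interval -0.317 to 0.183) and Il33 (0.19, -0.107 to 0.486) were not called, and that of Il1rn was 0.0468 under TMM scaling.

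The order of levels also changed. At 8 h, in CPM per kb of exon, Il1rn (2051 ± 187, SD, n = 4) was followed by Il1b (139 ± 38.1), Il18bp (47.8 ± 3.77), Il18 (22.6 ± 2.15) and Il1a (15.1 ± 1.16), none of which overlapped with its neighbour. Il1rap (0.944 ± 0.125) and Il33 (0.835 ± 0.436) overlapped each other, as did Il1r2 (0.44 ± 0.0706) and Il1r1 (0.408 ± 0.0664). At 12 h Il1rn (1961.9 ± 226) was followed by Il1b (95.1 ± 41.1) and Il18bp (82.6 ± 5.41), whose ranges now overlapped, and then by Il1a (29.2 ± 3.85), which had passed Il18 (15.4 ± 0.851). Il1rap was last at 12 h, at 0.326 ± 0.0191 CPM per kb, below Il33, Il1r2 and Il1r1. These orders rest on dividing by exon length. In mean CPM at 12 h, Il1r1 was at 4.76, Il1rap at 3.7, Il33 at 2.85 and Il1r2 at 1.65, while Il18bp was at 250 and Il1b at 181. Mean CPM at 8 h was already higher for Il1a (29.8) than for Il18 (23.3).

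Ratios within a library do not depend on how libraries were scaled. The ratio of Il18bp to Il18 per kb was 0.313 to 0.641 at M0, 1.83 to 2.66 at 8 h and 4.73 to 5.75 at 12 h. The binding protein lay above its ligand in all 8 LPS libraries. Its place below the ligand at M0 rests on dividing by exon lengths of 3026 bases for Il18bp and 1031 for Il18. Without that step, mean CPM at M0 was 5.09 for Il18bp and 4.54 for Il18. If counting ignored strand, Numa1 could also enter this ratio. Il1b exceeded Il1a by 6.11 to 11.8 times at 8 h and by 2.58 to 4.84 times at 12 h. The antagonist Il1rn exceeded Il1b by 10 to 21.2 times at 8 h and by 10.5 to 29.6 times at 12 h, and exceeded Il1a by 118 to 152 times at 8 h and by 50.8 to 82.9 times at 12 h. Those ratios for Il1a did not overlap between 8 and 12 h, and those for Il1b did.

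**Figure D3:**
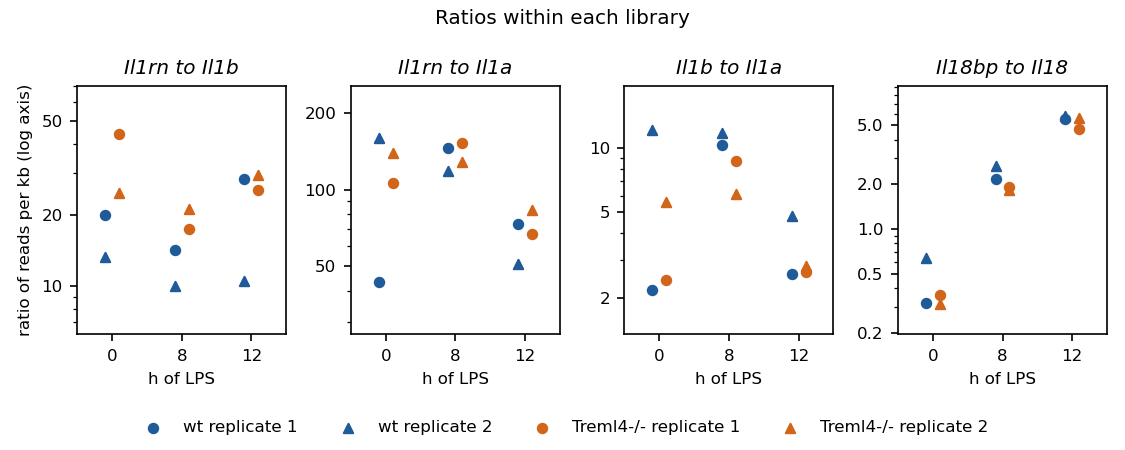
Ratio of CPM per kb of exon within each library (log axis) for Il1rn to Il1b, Il1rn to Il1a, Il1b to Il1a and Il18bp to Il18 against h of LPS, with 1 point per library, circles for replicate 1, triangles for replicate 2, wt in blue and Treml4-/- in orange. Il18bp to Il18 rose at each step from 0.313 to 0.641 at M0 to 4.73 to 5.75 at 12 h, and at M0 the ratios to Il1a rest on 4 to 11 Il1a reads.

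Other genes of the family and of its pathway moved with LPS in both directions. Of 5 further ligand genes, Il1f9 and Il1f6, which encode IL-36 cytokines, passed the filter and were both called higher. Il1f9 rose by 4.87 at 8 h and 4.75 at 12 h on the log2 scale (limma adjusted p = 2.41e-10 and 2.88e-10). Il1f6 had 0 or 1 read in each M0 library, 8.86 to 21.7 CPM at 8 h and 9.8 to 22.9 CPM at 12 h, so it passed the filter only through its LPS libraries and its call adds nothing. Il1f5, Il1f8 and Il1f10 had at most 2 reads in a library. Of 7 further receptor genes, 3 passed the filter. Il18rap, the accessory chain of the IL-18 receptor, rose by 4.36 at 8 h (limma adjusted p = 1.15e-10) and then fell by 2.89 between 8 and 12 h (limma adjusted p = 6.59e-08), whereas Il18r1, the ligand-binding chain, had at most 1 read in a library. Sigirr, a negative regulator of the family, fell by 1.54 at 8 h and by 1.25 at 12 h (limma adjusted p = 2.43e-08 and 1.5e-07) and was called lower under all 4 scalings. It was at 2.54 to 3.97 CPM at M0 and at 0.297 to 0.873 CPM after LPS, so it passed the filter only through M0. Il1rl2, the IL-36 receptor, was called lower at 8 h (-0.686, limma adjusted p = 0.000314) with library size only, at -0.237 with median of ratios, -0.27 with TMM and -0.156 with quantile normalization, and Il1rl1, the IL-33 receptor, had at most 7 reads in a library.

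Of 12 genes of cytokine processing and release, 6 were called higher and 2 lower at 8 h, and 6 higher and 3 lower at 12 h, with a median log2 fold change of 0.529 and 0.435. Among all genes the shares given above were 76.9% called and 17.1% higher at 8 h, and 76.5% called and 16.3% higher at 12 h. With median of ratios scaling the counts were 10 higher and 2 lower at 8 h, and 9 higher and 1 lower at 12 h. Among the 12086 genes tested, that scaling gave 3753 higher and 3778 lower at 8 h, and 3940 higher and 3927 lower at 12 h. Casp4, an inflammatory caspase, rose by 3.86 at 8 h and 3.52 at 12 h (limma adjusted p = 6.26e-11 and 1.35e-10), and Nlrp3, the sensor of the inflammasome that activates caspase-1, rose by 3.12 and 2.31 (limma adjusted p = 3.22e-11 and 3.46e-10). Nlrp1b fell by 1.59 and 2.26 (limma adjusted p = 3.3e-06 and 1.31e-07), and Capn2, a calpain, fell by 1.37 at 8 h (limma adjusted p = 9.71e-09). Between 8 and 12 h, 1 gene was called higher and 4 lower, against 32.1% of all genes called, among them the inflammasome adaptor Pycard (-1.57, limma adjusted p = 4.76e-08) and Mefv, which encodes pyrin (-1.2, limma adjusted p = 8.8e-06).

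Of 17 genes that signal downstream of the receptors, 3 were called higher and 8 lower at 8 h, and 5 higher and 8 lower at 12 h, with medians of -0.184 and -0.435. The 11 of 17 called at 8 h lay under the 76.9% of all genes, and the 3 called higher were near the 17.1% of all genes. At 12 h all but 4 of the 17 were called, near the 76.5% of all genes, and 16.3% of all genes were called higher. With median of ratios scaling the counts turned to 9 higher and 4 lower at 8 h and 7 higher and 4 lower at 12 h. Under that scaling 3753 of the 12086 genes tested were called higher and 3778 lower at 8 h. The same numbers at 12 h were 3940 higher and 3927 lower. Peli1, an E3 ligase that acts on IRAK proteins, rose by 2.77 at 8 h (limma adjusted p = 4.37e-11), and the adaptor Myd88 rose by 1.82 (limma adjusted p = 1.21e-10), in contrast to the related ligases Peli2 and Peli3, which fell by 4.66 and 2.27 (limma adjusted p = 4.59e-12 and 2.84e-10). Peli2 was at 32.7 to 46.4 CPM at M0 and at 0.278 to 1.04 CPM after LPS, so it passed the filter only through M0. At 12 h the kinase Irak1 was lower by 2.26 (-2.26, limma adjusted p = 7.37e-11). These directions were the same under all 4 scalings.

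The comparison of wt with Treml4-/- asks whether Treml4 changes these levels, and none of the 9 genes was called at any time point, in the mean over time points or in the difference of the LPS response between genotypes. Among all genes tested, 0.0993% were called at M0, 0.091% at M1-8 h, 0.132% at M1-12 h, 0.414% in the mean of 3 time points and 0.00827% in either difference of response. Leaving out 1 library moved the counts behind these shares, from 12 to 220 at M0 without wt M0 replicate 1, from 11 to 599 at M1-8 h without Treml4-/- M1-8 h replicate 1, from 16 to 79 at M1-12 h without wt M1-12 h replicate 1 and from 50 to 183 in the mean without wt M0 replicate 1. By unadjusted limma p under 0.05, 0 of the 9 genes were reached at M0, 2 at M1-8 h, 2 at M1-12 h, 3 in the mean and 1 in each difference of response. Among the 12086 genes tested that p was reached by 405, 2539, 912 and 2434 genes in the first 4 of these comparisons and by 806 and 462 in the differences of response at 8 and 12 h, so the members' count at 8 h was near the background. Voom on the recovered reads called 0 members in each comparison. With 2 replicates per condition, the intervals below still hold differences larger than 1.4-fold for several genes. How often the 2 libraries of each genotype separate was not counted over all genes, so overlap given below only describes the values.

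Il33 and Il1b had the largest differences on the log2(CPM + 1) scale, both higher in wt. For Il33, the wt values listed above were 2.08 and 4.27 CPM against 1.62 and 1.66 CPM at 8 h, and 3.72 and 3.91 CPM against 1.92 and 1.84 CPM at 12 h, without overlap at either time. The log2 fold change of wt over Treml4-/- was 0.607 at 8 h (95% confidence interval 0.188 to 1.03, limma adjusted p = 0.169), 0.742 at 12 h (0.323 to 1.16, limma adjusted p = 0.257) and 0.45 in the mean (0.208 to 0.692, limma adjusted p = 0.0882). That mean is lowered by M0, where both genotypes were at 0. These fits share 1 spread over all conditions, and both M0 conditions had none for Il33. The 2 wt libraries at 8 h lay 0.775 apart on the log2(CPM + 1) scale, so the 8 h interval may be too narrow. The LPS response of Il33 differed by 0.607 at 8 h (limma adjusted p = 0.729) and 0.742 at 12 h (limma adjusted p = 0.999), the same values since M0 was at 0. Without wt M1-8 h replicate 1, which had the lower wt value, Il33 was called at 8 h (0.995, limma adjusted p = 0.0095), at 12 h (0.742, limma adjusted p = 0.0171) and in the mean (0.579, limma adjusted p = 0.00215), and without wt M1-8 h replicate 2 it was called at 12 h (limma adjusted p = 0.0161). Either fit leaves 1 wt library at 8 h and takes its spread from the other groups, of which both M0 groups were at 0 for Il33, and leaving out the lower wt value raises the 8 h difference by construction. The 6 fibroblast markers, cells in which Il33 is known to be high, summed to 3.55 and 5.25 CPM in wt and 3.32 and 2.78 CPM in Treml4-/- at 8 h, and to 1.67 and 2.14 CPM in wt and 1.87 and 0.989 CPM in Treml4-/- at 12 h, with Pdgfra at no more than 4 reads in a library. The higher wt sum at 8 h came from Pdgfrb, at 2.52 and 4.66 CPM in wt and 2 and 1.9 CPM in Treml4-/-. The means of Col1a1, Col1a2 and Dcn were not higher in wt at 8 h. At 12 h Pdgfrb was at 0.786 and 1.37 CPM in wt and 0.792 and 0.469 CPM in Treml4-/-. The 12 h means of Col1a1, Col1a2, Col3a1 and Pdgfra, each at no more than 15 reads in a library, were also higher in wt. That of Dcn was lower in wt. The part of these markers in the Il33 difference was not tested.

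For Il1b, the log2 fold change of wt over Treml4-/- was 0.261 at M0 (95% confidence interval -0.355 to 0.877, limma adjusted p = 1), 0.665 at 8 h (0.0488 to 1.28, limma adjusted p = 0.216), 0.517 at 12 h (-0.0992 to 1.13, limma adjusted p = 0.758) and 0.481 in the mean (0.125 to 0.837, limma adjusted p = 0.176). The groups overlapped at M0 and 12 h and did not at 8 h. At 12 h the difference rested on wt replicate 2 and was -0.0196 without it, whereas without wt M1-12 h replicate 1 the mean difference was called (0.66, limma adjusted p = 0.0184). The wt replicate 2 libraries after LPS had the highest Il1b at 8 and 12 h. They also had the highest sum of the 6 dendritic cell markers, 26 CPM at 8 h and 27.3 CPM at 12 h. The other 6 LPS libraries had 13.8 to 16.7 CPM. These sums came mostly from Ccr7 and Xcr1, which rose with LPS in both genotypes, Xcr1 from 0 reads at M0. Flt3, Zbtb46, Cd209a and Siglech had at most 12, 17, 4 and 5 reads in an LPS library. The part of these genes in the Il1b difference was not tested. The ratio of Il1rn to Il1b per kb was 10 and 14.2 in wt and 17.4 and 21.2 in Treml4-/- at 8 h, without overlap, and 10.5 and 28.4 in wt and 25.4 and 29.6 in Treml4-/- at 12 h, with overlap.

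**Figure D4:**
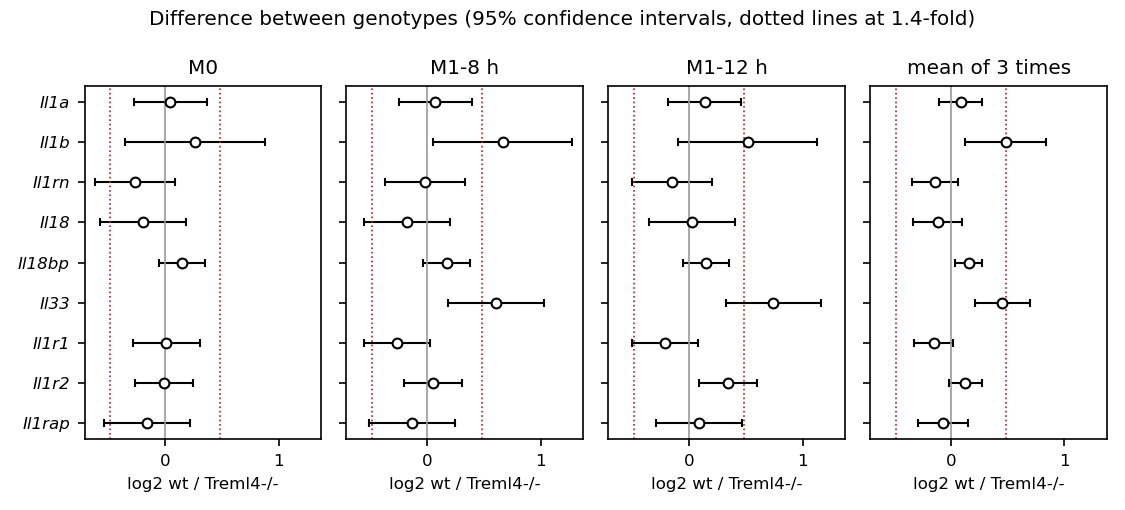
Log2 fold change of wt over Treml4-/- on the log2(CPM + 1) scale for each gene at M0, M1-8 h, M1-12 h and as the mean of 3 time points, with limma's 95% confidence intervals and dotted lines at 1.4-fold. No gene was called, Il33 is not drawn at M0 where all libraries had 0 reads, and the largest differences are those of Il33 and Il1b after LPS.

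The remaining genes had smaller differences. Il18bp was higher in wt by 0.149 at M0, 0.172 at 8 h and 0.15 at 12 h, and by 0.157 in the mean (95% confidence interval 0.0384 to 0.276, limma adjusted p = 0.179), an interval that lies within 1.4-fold. Il1r2 was higher in wt at 12 h by 0.342 (0.0863 to 0.597, limma adjusted p = 0.475), without overlap. Il18bp at 8 and 12 h and Il1rap at 12 h were also higher in wt without overlap. Il1rn at M0 and Il18 and Il1r1 at 8 h were lower in wt without overlap. In the mean of the 3 time points, Il1a differed by 0.0851 (95% confidence interval -0.103 to 0.273), Il1r2 by 0.127 (-0.0207 to 0.274), Il1rn by -0.142 (-0.347 to 0.0616), Il18 by -0.118 (-0.337 to 0.101), Il1r1 by -0.154 (-0.323 to 0.0139) and Il1rap by -0.0674 (-0.287 to 0.152), all within 1.4-fold on the log2(CPM + 1) scale. For Il1a, Il1r1 and Il1r2, which were near 0 at M0, the scale and the M0 values shrink this mean, so it does not show equal levels. Mean CPM of Il1r2 at 12 h was 1.97 in wt and 1.33 in Treml4-/-. Of the pathway genes, 0 were called between genotypes in every comparison. Il1f9, with the widest gap, had 114 and 62.1 CPM in wt and 155 and 159 CPM in Treml4-/- at 8 h, a log2 fold change of -0.893 (95% confidence interval -1.45 to -0.341, limma adjusted p = 0.155), opposite in sign to Il1b.

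Genes with the most similar profiles were described by Pearson's r over the 12 libraries, which share conditions and depth. For Il1rn these were Nos2, Fcgr4 and Fcgr1 (r of 0.999 or more), for Il1b Traf1, Slc2a6 and Arid5a (0.997 to 0.998), and for Il1a Phf11a, Isg20 and Ms4a6d (0.998 to 0.999). For Il18bp they were Isg20, BC147527 and Mov10 (0.999), so Isg20 stood near both Il18bp and Il1a. For Il18 they were Ttc39b, Prpf38a and Casp8 (0.996 to 0.997). For the receptors they were Tbc1d9, Igf2bp2 and Apol9a near Il1r1 (0.995), H2-Q4, Ptgs2os and Fam3b near Il1r2 (0.985 to 0.99), and Eif4g2, Prrc2c and Ddx19b near Il1rap (0.976 to 0.983). The mean CPM of Nos2, which encodes inducible nitric oxide synthase, went from 5.22 at M0 to 17589.5 at 8 h and 16456.9 at 12 h, and that of Eif4g2, a translation factor, from 778 to 1211.8 and then to 548.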

How the data were processed

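RNA of 12 BMDM libraries, stranded and poly(A)-selected, was sequenced as paired reads. The authors aligned reads with STAR (build mm10 in the submitters' processing notes), counted them per gene with Subread, and deposited log2 CPM, that is counts scaled to library size and logged after adding 0.25 reads. The annotation and the use of strand in counting were not given in the sources used here. DESeq2, edgeR and limma were part of the authors' workflow, with a false discovery rate of 5% and a 1.4-fold minimum. The planned design had assumed CPM, so log2 values were turned back to CPM, which gave whole reads for 100% of values (tolerance 0.001).

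Here, log2(CPM + 1) was fitted for the 12086 genes that reached 1 CPM in 2 or more libraries with limma 3.58.1 in R 4.3.3, with a mean per condition and a trend, and p-values were adjusted by Benjamini-Hochberg over all genes tested. LPS contrasts average both genotypes. The test was checked on simulated counts for the 8 h LPS contrast only, with as many genes raised as lowered. That check covers neither the shift in the median of all genes after LPS nor the genotype comparisons. Tables and figures were made with Python 3.11.15, numpy 2.4.6, pandas 2.3.3 and matplotlib 3.10.9. Alternatives changed the pseudocount (0.1 CPM), filter (none, 5 CPM), scale, scaling, trend, samples, fold minimum and blocks, left out each library, and, chosen after seeing the data, used voom on the recovered reads. The 2 libraries of each condition differed by more than sampling noise (chi-square over its degrees of freedom 11.3 to 51.7), so no pair looked like 1 library deposited again. This does not show that they came from separate cultures, and each was counted as a sample as labelled. The members and gene lists were chosen with earlier results of these data known. The genes named are the members, Treml4, up to 2 called genes with the largest change in each direction from each pathway list, and the 3 genes most similar to each member, which for Il33 are not reported here. Il1f9 in the genotype comparison and Numa1 were chosen after their values were seen.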

Additional observations from a re-analysis of the deposited data

How the results depend on the processing

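Leaving aside the settings that left out a library, 570 of 589 values of single genes and 215 of 232 counts kept their direction and their side of the thresholds. The direction turned for Il1rap at 12 h against M0 (0.279 with median of ratios, 0.283 with TMM and 0.57 with quantile normalization, though it was called lower at -0.488 with a pseudocount of 0.1, -0.498 with the deposited log2 CPM and -0.499 with voom), for Il1rap in the genotype mean (0.0112 with median of ratios and 0.0154 with quantile normalization) and for Il1rn between 12 and 8 h (0.0468 with TMM). The fall of Il1b between 8 and 12 h was not called with a pseudocount of 0.1, with no filter, with the deposited log2 CPM, with TMM (-0.477) or with quantile normalization (-0.448), nor that of Il18 with median of ratios (-0.479), TMM (-0.419) or quantile normalization (-0.444), under which Il1rn was called (-0.527). The cause was not tested.

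Counts of all genes called moved by more than 1.5 times in these cases. Between 12 and 8 h, 7291 genes were called with no fold minimum, against 3885. Between genotypes, 7 genes were called at M0 with only the groups compared (12 with all groups), 7 at M1-8 h with no filter and 5 with only the groups compared (11), and at M1-12 h 7 with no filter, 8 with only the groups compared and 10 with voom (16). In the mean, 78 were called with a pseudocount of 0.1, 17 with no filter, 31 with the filter at 5 CPM and 119 with no fold minimum (50). In the difference of the 8 h response, 2 were called with no filter and 0 with the deposited log2 CPM or voom, and in that of the 12 h response 0 with the deposited log2 CPM or voom and 2 with quantile normalization (1 each).

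With each library left out in turn, which leaves 1 condition with 1 library that is assumed to vary like the others, the genes called numbered 7 to 220 at M0, 8 to 599 at M1-8 h, 6 to 79 at M1-12 h, 21 to 183 in the mean, 1 to 3 in the 8 h and 1 to 33 in the 12 h difference of response, and members called 0 to 1 at M1-8 h, at M1-12 h and in the mean. The highest counts came without wt M0 replicate 1 (220, 183 and 33), Treml4-/- M1-8 h replicate 1 (599), wt M1-12 h replicate 1 (79) and wt M0 replicate 2 (3). The difference between 12 and 8 h ranged from -0.157 to 0.0224 for Il1rn and from -0.00417 to 0.384 for Il33, and the genotype difference from -0.0196 to 1.05 for Il1b at 12 h and from -0.151 to 0.0163 for Il1rap in the mean.

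The labels number replicates 1 and 2 in every condition without stating a pairing. Deviations of same-numbered libraries from their condition means correlated at -0.264, 0.297 and 0.0563 between genotypes at 0, 8 and 12 h. Within wt they correlated at 0.125 (M0 and 8 h), 0.0625 (M0 and 12 h) and 0.406 (8 and 12 h), and within Treml4-/- at 0.462, -0.199 and -0.272. In the fit with a replicate block, the genes called numbered 12 at M0, 12 at M1-8 h, 15 at M1-12 h and 55 in the mean, 0 members among them, and no call of a member changed. With genotype and replicate number together as a replicate block, 12, 11, 16 and 36 genes were called, and no call of a member changed. The planned DESeq2 and edgeR fits were not run because the deposited values are log2 CPM. Whole reads were recovered from these values, so such fits would have been possible, and only voom was run on them. Counts of a few reads at M0 (Il1a, Il1r1, Il1r2, Il33) limit how well their changes can be sized.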
